A study of Homo sapiens with 6 samples.

Results

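The E2F factors and the retinoblastoma (pocket) proteins form the transcriptional switch at the entry into S phase. The 10 genes described here were chosen by name: the activator genes E2F1, E2F2 and E2F3, the repressor genes E2F4, E2F7 and E2F8, the pocket protein genes RB1, RBL1 and RBL2, and the dimer partner gene TFDP1. They are 10 of 26810 genes in the deposited table. Of these, 9 passed the filter on low values and were tested, and E2F7 was listed at or near 0.

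The libraries held poly(A) RNA of U-937, a human myeloid leukemia cell line with monocytic features, for which the labels give the genotype KMT2A-MLLT10 fusion. This genotype is printed as labelled, and the fusion partner was not checked here. All cells came from a Cas9-expressing clone and received lentivirus with either sgMETTL1.3, a guide against the tRNA N7-methylguanosine methyltransferase METTL1, or the control guide sgNS, with 3 libraries in each group. Harvest was at day 8 to 10 after transduction, and in both groups selection was with blasticidin (10 µg/ml) and with hygromycin (200 µg/ml). The comparison addressed the effect of METTL1 on gene expression in this leukemia line. With 1 guide, 1 clone and no rescue, loss of METTL1 and any side effect of the guide cannot be told apart. Separate cultures are not named for the replicates, so that each p-value reflects the spread of 3 libraries, possibly technical only.

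E2F1, E2F2 and E2F3 bind DNA as dimers with a DP protein such as the TFDP1 product and switch on genes for DNA replication. RB1 holds these activators in check until cyclin-dependent kinases phosphorylate it, while RBL1 (p107) and RBL2 (p130) pair mainly with E2F4 and, with the MuvB core, form the DREAM complex that keeps cell cycle genes off in resting cells. E2F7 and E2F8 repress without a DP partner or a pocket protein, and several genes of the family are themselves E2F targets, so the system feeds back on itself.

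Because of that feedback, the sequences just before the start sites of the member genes are of interest. The 250 bases before each RefSeq start (GRCh38.p14) were searched on both strands for the E2F letters TTTCCCGC, TTTCGCGC, TTTGCCGC and TTTGGCGC. Of 35116 windows of this length, 2.79% held at least 1 of these. A window was found for 9 of the 10 members, and a match was present for E2F1, E2F2, E2F3, RBL1 and TFDP1. The RB1 entry starts inside the gene body and was not used. The last 100 bases before the start are shown for the 3 activators and for RBL1, with the matched letters in capitals, and for E2F4 as a member whose window held none. Each reads 5′ to 3′ on the gene's own strand.
E2F1: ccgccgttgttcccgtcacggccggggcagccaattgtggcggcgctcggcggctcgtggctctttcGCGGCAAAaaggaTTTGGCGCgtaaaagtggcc
E2F2: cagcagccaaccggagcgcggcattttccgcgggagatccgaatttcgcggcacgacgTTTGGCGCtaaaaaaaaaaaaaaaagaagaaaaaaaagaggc
E2F3: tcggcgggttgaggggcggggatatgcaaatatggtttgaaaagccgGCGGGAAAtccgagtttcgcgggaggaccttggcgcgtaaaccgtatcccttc
RBL1: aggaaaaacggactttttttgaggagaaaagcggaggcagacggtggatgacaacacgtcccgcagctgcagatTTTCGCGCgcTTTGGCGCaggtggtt
E2F4: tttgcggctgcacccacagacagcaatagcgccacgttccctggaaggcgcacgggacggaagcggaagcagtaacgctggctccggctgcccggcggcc

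These stretches lie at chr20:33686386-33686485 on the minus strand (E2F1), chr1:23531234-23531333 on the minus strand (E2F2), chr6:20401779-20401878 on the plus strand (E2F3), chr20:37095998-37096097 on the minus strand (RBL1) and chr16:67192055-67192154 on the plus strand (E2F4). The GENCODE start of E2F1, at 33686404, falls inside its stretch, and the other 4 stretches lie outside their GENCODE genes. E2F1 and RBL1 each carried 2 matches, and E2F2, E2F3 and TFDP1 carried 1 each. The E2F1 matches begin at positions -33 and -20 from the start, the RBL1 matches at -26 and -16, the E2F2 match at -42 and the E2F3 match at -53, whereas that of TFDP1 begins at -120, outside the last 100 bases. The E2F3 window also held the letters TTTGAA of the cell cycle homology region, CHR, which occur in 13.3% of windows. E2F4, E2F7 and RBL2 held no E2F match, which says only that these letters were not in these windows. Both RBL2 windows lie inside the GENCODE gene, with start sites at 53434471 and 53435619 and the gene start at 53433977. The bases before the GENCODE start of RBL2 were thus not searched. E2F1 with matches and E2F4 without a match were both among the members that fell, as described next. E2F2, which carried a match, was not among them, and E2F8 had no window. Any relation between the letters and these changes was not tested.

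Several facts about the libraries bear on every value. The deposited values were TPM, which are levels per transcript length, scaled so that the ERCC spike-ins had the same sum in each library; the depth is unknown. The ERCC share was 3.22 ± 0.144% for the sgNS libraries and 4.12 ± 0.440% for sgMETTL1.3 (SD, n = 3, as a percentage of summed TPM), so a gene that kept its share of the transcriptome had a lower spike-in scaled value in sgMETTL1.3. Over the tested genes, the log2 fold change had a median of -0.32 on the spike-in scale and 0.002 as TPM, and both scales are therefore given. The library sgMETTL1.3 replicate 1 stood apart: the deviation of its genes from the mean of the other libraries of its group correlated with their GC content. Spearman's rho was 0.838 across genes, which are not independent replicates. It was -0.731 and -0.745 in sgMETTL1.3 replicates 2 and 3, each set against a mean that includes replicate 1. METTL1, the targeted gene, had values of 19.7, 22.0 and 20.3 in sgNS and 8.28, 5.94 and 7.42 in sgMETTL1.3 (log2 fold change -1.41, SE 0.131, adjusted p = 2.41e-06). Of 10 myeloid markers, 9 passed the filter. On the spike-in scale 6 of these fell, against 49.3% of tested genes (8 without sgMETTL1.3 replicate 1, against 61.4%). As TPM 4 fell and CD68 rose, against 26.6% and 24.4%. LYZ (log2 fold change -2.47), FCGR1A (-0.85) and CD33 (-0.64), given on the spike-in scale, had the smallest p. The summed TPM was 1137 to 1162 in sgNS and 906 to 1008 in sgMETTL1.3. LYZ alone fell by more than this sum, from a mean of 340 to 77.5 TPM. The sum of the other markers was thus not lower in sgMETTL1.3. MPO was below 1 in every library. Of 25 markers of other cell types, 17 were below 1 TPM in every library and 9 were listed at 0 throughout. Among the other 8, NKG7, a granule gene of NK cells, fell on both scales, from 269 to 205 in mean TPM, as did PAX5, from 3.92 to 2.49. On the spike-in scale COL1A1 rose from a low mean of 1.06 to 2.19, and PECAM1 and KLF1 fell. As TPM, CD79A rose (2.86 to 4.89). COL1A1 (0.89 to 2.32) and VWF (0.67 to 1.24) reached 1 TPM only in sgMETTL1.3. They passed the TPM filter only through that group, so their TPM calls are not read as results. VWF was not tested on the spike-in scale. The defining T cell genes CD3D and CD3G were at 0. With a correction of each library for GC content, chosen after seeing the data, 8 members fell on the spike-in scale, against 61.4% of tested genes, and 6 as TPM, against 35.5%. Without sgMETTL1.3 replicate 1, 8 members fell on the spike-in scale, against 61.4% of tested genes. As TPM without that library 7 fell and 1 rose, against 35.4% and 34.7%. The part that these marker levels play in the results was not tested.

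On the spike-in scale, 8 of the 9 tested members fell in sgMETTL1.3, none rose, and E2F2 did not pass the test. The pocket protein genes RBL2 and RBL1 and the repressor gene E2F8 had the lowest log2 fold changes, from -0.90 to -0.76, and E2F3 and E2F2 the highest. Across all 12449 tested genes, 49.3% fell and 6.4% rose on this scale, and the number of members that fell has to be read against that background. As TPM, 6 members fell (E2F1, E2F4, E2F8, RBL1, RBL2 and TFDP1), E2F2 rose, and E2F3 and RB1 did not pass, against 26.6% of tested genes lower and 24.4% higher. The 3 sgMETTL1.3 values lay below all 3 control values for 8 members on the spike-in scale, which 53.4% of tested genes also showed, and for 7 members as TPM, against 33.1%. In bulk RNA, fewer cells that express a gene and less RNA per cell cannot be told apart. The spike-in scale is also not a measure per cell, since each library was made from 300 ng of total RNA. The labels leave out the ERCC amount, so less mRNA per total RNA and more ERCC added cannot be told apart either.

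**Figure D1:**
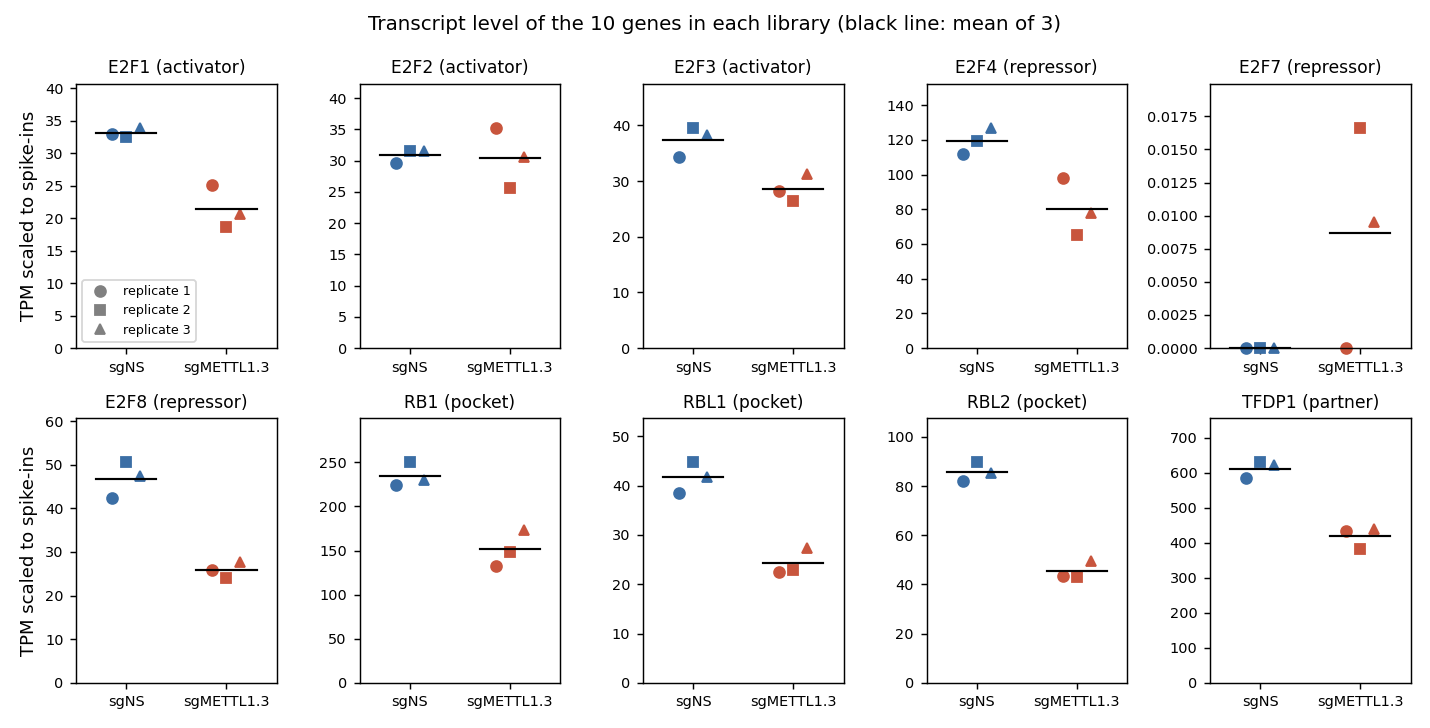
Transcript level (TPM scaled to ERCC spike-ins, vertical axis from 0, own range for each gene) of the 10 genes in each library; marker shapes are replicates, colors are groups and the black line is the mean of 3. For 8 genes every sgMETTL1.3 library lies below every sgNS library, the E2F2 groups overlap, and E2F7 does not exceed 0.0166.

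The 3 activator genes differed in whether they passed the test, and the differences between them were not tested. E2F1, the activator most closely tied to S-phase entry, had spike-in scaled values of 33.0, 32.5 and 33.9 in sgNS and 25.1, 18.7 and 20.6 in sgMETTL1.3. The groups did not overlap, and sgMETTL1.3 replicate 1 was the highest of its group. The mean fell from 33.2 ± 0.743 to 21.5 ± 3.26 (SD, n = 3), which is 64.8% of the control (log2 fold change of value + 1, as throughout, -0.61, SE 0.12, limma adjusted p = 0.000764). As TPM it fell by 0.28 on the log2 scale (adjusted p = 0.0181), and by 0.32 without sgMETTL1.3 replicate 1. E2F1 lies on chromosome 20 at 33675683 to 33686404 (GRCh38, GENCODE 29), minus strand, and no other annotated gene overlaps it.

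E2F2 was the only tested member that did not fall on the spike-in scale. Its values were 29.7, 31.5 and 31.5 in sgNS and 35.3, 25.6 and 30.6 in sgMETTL1.3. The groups overlapped, with the highest and the lowest of the 6 values both in sgMETTL1.3. The log2 fold change was -0.03, with a 95% interval of -0.29 to 0.24 and adjusted p = 0.859. As TPM the values were 26.3, 25.7 and 26.1 in sgNS and 34.4, 30.8 and 32.2 in sgMETTL1.3. There the groups separated, and E2F2 rose with a log2 fold change of 0.31 (95% interval 0.15 to 0.46, adjusted p = 0.00758). Without sgMETTL1.3 replicate 1, where E2F2 was highest, it was 0.27 as TPM (adjusted p = 0.000228) and -0.14 on the spike-in scale (adjusted p = 0.276). Without sgMETTL1.3 replicate 2 the spike-in value was 0.0871, so no direction was established on that scale, and only the higher TPM passed the test. The gene lies on chromosome 1 at 23506430 to 23531220, minus strand, with no overlapping gene.

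E2F3, which acts with E2F1 and E2F2 in proliferating cells, had values of 34.2, 39.6 and 38.3 in sgNS and 28.1, 26.5 and 31.3 in sgMETTL1.3. The groups did not overlap, but the lowest control and the highest sgMETTL1.3 library were close. E2F3 fell with a log2 fold change of -0.37 (SE 0.111, adjusted p = 0.0113). This call was lost without sgNS replicate 2 (adjusted p = 0.071) and without sgNS replicate 3 (adjusted p = 0.0601). As TPM the groups overlapped and the log2 fold change was -0.03 (adjusted p = 0.755), with a 95% interval of -0.23 to 0.16. E2F3 lies on chromosome 6 at 20401906 to 20493715, plus strand. The annotation names 2 processed copies, E2F3P1 and E2F3P2, to which some of its reads could have been assigned.

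Among the repressor genes, E2F4, the usual partner of the pocket proteins in resting cells, was the most abundant E2F in every library. Its values were 112, 120 and 127 in sgNS and 97.8, 65.2 and 77.6 in sgMETTL1.3. The groups did not overlap, and sgMETTL1.3 replicate 1 lay nearest to the controls. E2F4 fell with a log2 fold change of -0.59 (SE 0.137, adjusted p = 0.00355), and -0.74 without that library. As TPM it was -0.24 (adjusted p = 0.0475). That call was lost with median-of-ratios scaling (adjusted p = 0.0895), and with a GC correction of TPM the value was -0.41 (adjusted p = 5.75e-05). E2F4 lies on chromosome 16 at 67192169 to 67198918, plus strand, and 1 processed copy, E2F4P1, is annotated.

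E2F8, an atypical repressor that closes the S-phase program, had the lowest log2 fold change of the E2F members. Its values were 42.3, 50.5 and 47.4 in sgNS and 25.8, 24.0 and 27.7 in sgMETTL1.3. The 3 sgMETTL1.3 libraries lay close together and well below the controls. The mean fell from 46.7 ± 4.17 to 25.8 ± 1.81 (SD, n = 3), which is 55.3% of the control (log2 fold change -0.83, SE 0.110, adjusted p = 3.62e-05). As TPM it fell by 0.49 on the log2 scale (adjusted p = 0.00236), and by 0.42 without sgMETTL1.3 replicate 1. E2F8 lies on chromosome 11 at 19224063 to 19241620, minus strand, overlapped by the antisense gene AC009652.2.

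E2F7, its close relative with the same kind of tandem DNA-binding domains, was listed at 0 in all 3 sgNS libraries and in sgMETTL1.3 replicate 1, and at 0.0166 and 0.00949 in the other two. These correspond to 0.02 and 0.01 TPM, the smallest steps that the rounding of the values allows. It was not tested, and no fold change is given. Of the atypical pair, U-937 transcripts were therefore listed above this level for E2F8 only, in both groups.

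The 3 pocket protein genes fell on the spike-in scale, and RBL1 and RBL2 also as TPM. RB1, the retinoblastoma tumor suppressor, had values of 225, 250 and 230 in sgNS and 133, 148 and 173 in sgMETTL1.3. The groups were well separated, and sgMETTL1.3 replicate 1 was the lowest. The log2 fold change was -0.64 (SE 0.111, adjusted p = 0.000309). As TPM the values were 199, 204 and 191 in sgNS and 130, 179 and 182 in sgMETTL1.3. The groups still did not overlap, but the other two sgMETTL1.3 libraries lay far closer to the controls than replicate 1 did. The log2 fold change as TPM was -0.29 (SE 0.129, adjusted p = 0.0993) with all libraries and -0.13 (adjusted p = 0.00345) without sgMETTL1.3 replicate 1. RB1 lies on chromosome 13 at 48303726 to 48599436, plus strand. LPAR6 and RCBTB2 overlap it on the opposite strand, and because it is not given in the sources used here whether counting used strand, reads of these genes cannot be told apart there.

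RBL1 encodes p107, the pocket protein of cycling cells. Its values were 38.5, 44.7 and 41.8 in sgNS and 22.5, 22.8 and 27.4 in sgMETTL1.3, so that the groups were separated by a wide gap. The log2 fold change was -0.76 (SE 0.115, adjusted p = 9.93e-05), and -0.42 as TPM (adjusted p = 0.014). Without sgMETTL1.3 replicate 1 these were -0.71 and -0.31. RBL1 lies on chromosome 20 at 36996349 to 37095995, minus strand, the same chromosome as E2F1, and the antisense gene AL136172.1 overlaps it.

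RBL2 encodes p130, the pocket protein of resting cells, and it had the lowest log2 fold change of the tested members. Its values were 81.8, 89.6 and 85.3 in sgNS and 43.4, 43.1 and 49.5 in sgMETTL1.3. No sgMETTL1.3 library came near the controls. The mean fell from 85.6 ± 3.87 to 45.3 ± 3.59 (SD, n = 3), which is 53.0% of the control (log2 fold change -0.90, SE 0.102, adjusted p = 9.97e-06). Of all tested genes, 9.8% had a lower log2 fold change. As TPM it fell by 0.56 on the log2 scale (adjusted p = 0.0022), and by 0.46 without sgMETTL1.3 replicate 1. RBL2 lies on chromosome 16 at 53433977 to 53491649, plus strand, and AKTIP overlaps it on the opposite strand.

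TFDP1, which encodes the DNA-binding partner DP1, was the most abundant member in both groups. Its values were 585, 630 and 621 in sgNS and 435, 382 and 439 in sgMETTL1.3. The groups did not overlap. TFDP1 fell with a log2 fold change of -0.55 (SE 0.0968, adjusted p = 0.000335), and -0.20 as TPM (adjusted p = 0.0131). It lies on chromosome 13 at 113584721 to 113641470, plus strand, with no overlapping gene.

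**Figure D2:**
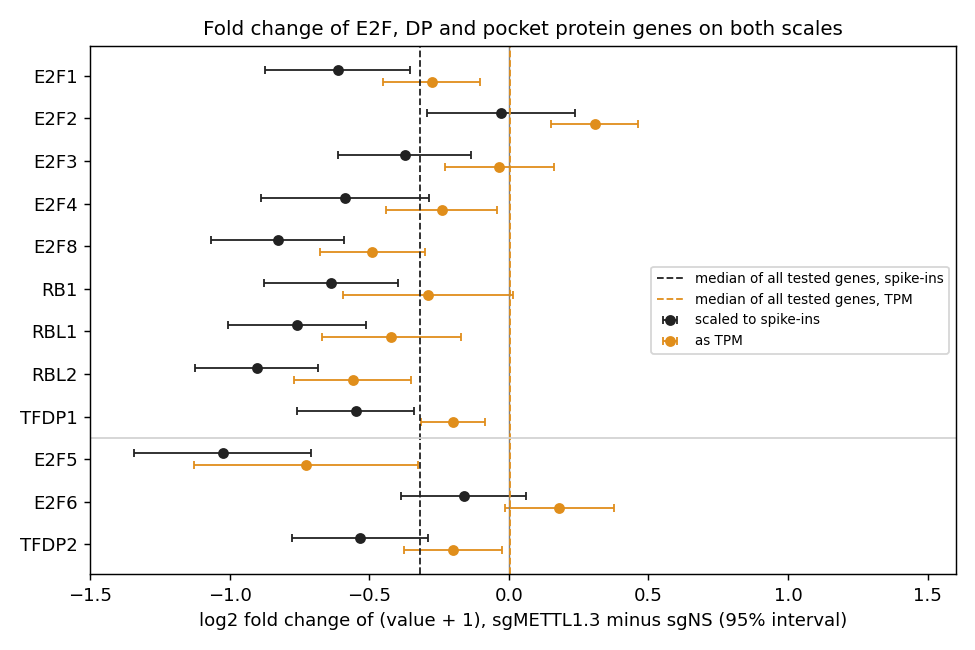
Log2 fold change of (value + 1), sgMETTL1.3 minus sgNS, with its 95% interval, for the tested members (above the grey line) and for E2F5, E2F6 and TFDP2 (below it), with spike-in scaled values in black and TPM in orange; dashed lines are the medians of all tested genes, -0.32 and 0.002. The points of E2F2 and E2F6 lie to the right of the median on both scales and those of all other genes shown to its left. The E2F2 interval crosses 0 on the spike-in scale and lies above it as TPM.

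The remaining genes of both families were fixed by name as well. E2F5, another E2F that pairs with pocket proteins, had values of 6.96, 8.88 and 7.16 in sgNS and 2.62, 3.86 and 3.32 in sgMETTL1.3. With a log2 fold change of -1.03 (SE 0.147, adjusted p = 6.6e-05) and -0.73 as TPM (adjusted p = 0.011), it fell from a low level, and its log2 fold change was below that of every tested member. E2F6, which represses through Polycomb proteins and not through pocket proteins, did not pass the test, with log2 fold changes of -0.16 (adjusted p = 0.204) and, as TPM, 0.18 (adjusted p = 0.111). As TPM without sgMETTL1.3 replicate 1 it rose, at 0.26 (adjusted p = 0.0001). TFDP2, the second DP gene, fell on the spike-in scale (log2 fold change -0.53, adjusted p = 0.00129) and did not pass as TPM (-0.20, adjusted p = 0.0569). TFDP1 made up 96.3% of the summed DP transcripts in both groups.

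Ratios within a library do not depend on the scaling, and they showed how the makeup of the family differed. No test is given for them, since the members were chosen with earlier results of these data known. E2F2 made up 9.71, 9.35 and 9.32% of the summed E2F1 to E2F8 transcripts in sgNS and 13.6, 12.3 and 12.7% in sgMETTL1.3. E2F8 made up 13.8, 15.0 and 14.0% in sgNS and 9.95, 11.6 and 11.5% in sgMETTL1.3. E2F8 was thus the larger of this pair in every control library, and E2F2 in every sgMETTL1.3 library. The share of E2F6 was higher in each sgMETTL1.3 library, at 17.2, 21.0 and 20.4% against 15.5, 16.1 and 15.5%. The shares of E2F1, E2F3 and E2F4 overlapped between the groups.

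Per transcript of E2F1 there were 0.899, 0.969 and 0.928 of E2F2 in sgNS and 1.41, 1.37 and 1.48 in sgMETTL1.3. E2F1 was thus the more abundant of this pair in every control library and E2F2 in every sgMETTL1.3 library. The sum of the 3 activators per sum of the 3 repressor E2Fs was 0.629, 0.609 and 0.595 in sgNS and 0.715, 0.793 and 0.784 in sgMETTL1.3. The groups did not overlap, and the repressors outweighed the activators in all 6 libraries. Pocket protein transcripts per activator transcript were 3.56, 3.71 and 3.45 in sgNS and 2.25, 3.03 and 3.03 in sgMETTL1.3. Every sgMETTL1.3 library was below the controls, and replicate 1 was the farthest from them. Within the pocket proteins, RB1 made up 64.9 ± 0.377% of the control transcripts and 68.5 ± 1.40% of those in sgMETTL1.3 (SD, n = 3), and RBL2 23.6 ± 0.286% and 20.6 ± 1.10%.

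**Figure D3:**
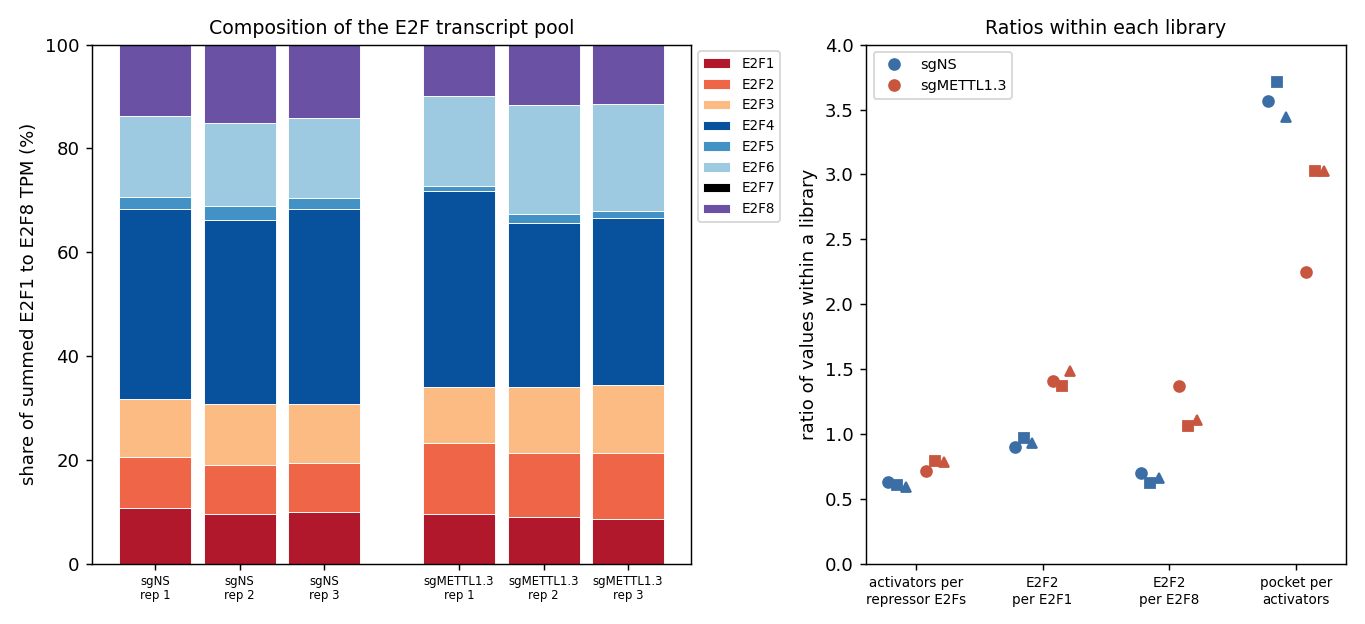
Left, share of each E2F in the summed E2F1 to E2F8 transcripts of a library (percent); right, ratios within each library, with colors for groups and marker shapes for replicates as circle, square and triangle for 1, 2 and 3. The E2F2 share is 9.32 to 9.71% in sgNS and 12.3 to 13.6% in sgMETTL1.3, and E2F2 per E2F1 is below 1 in each sgNS library and above 1 in each sgMETTL1.3 library.

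A related contrast on the log scale was the difference between the mean log2(value + 1) of the activators and that of the repressor E2Fs. The sgNS libraries had 0.95 ± 0.0144 and the sgMETTL1.3 libraries 1.08 ± 0.0477 (SD, n = 3), a difference of 0.13 that ranged from 0.11 to 0.16 when each library was left out. The added 1 weighs on this value through E2F7: without a pseudocount and without E2F7 the difference was 0.37. Because of the added 1 it also depends on the scaling, and it was 0.24 as TPM. Activators minus pocket proteins differed by 0.43, from -1.46 ± 0.0519 to -1.03 ± 0.217, and by 0.30 without sgMETTL1.3 replicate 1. On both measures the groups did not overlap. No GC-corrected form of these measures was computed. With the GC correction on the spike-in scale, the log2 fold changes of E2F1, E2F2 and E2F3 were -0.83, -0.17 and -0.32. Those of RB1, RBL1 and RBL2 were -0.50, -0.64 and -0.82.

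The order of the levels, which are per transcript length, also differed between the groups. In sgNS it ran from TFDP1 through RB1, E2F4 and RBL2 to E2F6, E2F8, RBL1 and E2F3, then E2F1, E2F2, TFDP2, E2F5 and E2F7. Neighbours from E2F6 to E2F3 overlapped in range and the others did not. In sgMETTL1.3 E2F2 moved up to follow RBL2, and the ranges of neighbours from E2F2 through E2F3, E2F8 and RBL1 to E2F1 overlapped, as did those of E2F6 and RBL2. TFDP1, RB1 and E2F4 kept the first 3 places.

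The genes around this switch came from lists drawn up by name, and those named are the ones with the smallest p in each direction. The counts are to be read against all tested genes, of which 49.3% fell and 6.4% rose on the spike-in scale. As TPM, 26.6% of tested genes fell and 24.4% rose. Without sgMETTL1.3 replicate 1, 61.4% fell on the spike-in scale, and 35.4% fell and 34.7% rose as TPM. With the GC correction, 61.4% fell on the spike-in scale. Of 8 RB kinase and cyclin genes, 6 fell on the spike-in scale and none rose (median log2 fold change -0.53), and 3 fell as TPM (5 fell and 2 rose as TPM without sgMETTL1.3 replicate 1). These 3 were CCND2, a D-type cyclin (-1.02 on the spike-in scale), and the kinase genes CDK6 (-0.82) and CDK2 (-0.70), which phosphorylate pocket proteins. CCND3 was the more abundant D-type cyclin, with a mean of 1466 in sgNS against 27.1 for CCND2, and it fell on the spike-in scale (-0.61) and did not pass as TPM (adjusted p = 0.0546). CCND3, CDKN2D and the markers CD68, VWF and CD79A are named outside the rule, after their values were seen. Of 6 tested CDK inhibitor genes, 2 fell and 1 rose on the spike-in scale, and 4 fell and 1 rose without sgMETTL1.3 replicate 1 or with the GC correction. As TPM none fell and 2 rose, CDKN1A and CDKN2D (0.46, adjusted p = 0.00561). CDKN1A, which encodes the cyclin-dependent kinase inhibitor p21, had values of 28.6, 29.2 and 33.1 in sgNS and 73.0, 53.0 and 59.6 in sgMETTL1.3, and it rose with a log2 fold change of 1.00 (SE 0.126, adjusted p = 2.37e-05) and 1.34 as TPM. CDKN1B, encoding p27 (-0.37), and CDKN2B, encoding p15 (-0.38), fell on the spike-in scale and did not pass as TPM.

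Among the partners of the pocket proteins, of 8 MuvB, B-MYB and FOXM1 genes, 5 fell and none rose on the spike-in scale. Across all tested genes 49.3% fell and 6.4% rose there. The median of the 8 genes was -0.32, as over all tested genes. As TPM 1 fell, MYBL2, and 1 rose, against 26.6% and 24.4% of tested genes. Without sgMETTL1.3 replicate 1, 1 fell and 3 rose as TPM, against 35.4% and 34.7%. MYBL2 encodes B-MYB, which joins MuvB as cells pass S phase, and its log2 fold change was -0.77 on the spike-in scale and -0.42 as TPM. The MuvB subunit genes LIN9 (-0.59) and LIN54 (-0.53) fell on the spike-in scale only. Of 12 corepressor genes, 8 fell and none rose on the spike-in scale, against 49.3% and 6.4% of tested genes, with a median of -0.40. As TPM 5 fell and 2 rose, against 26.6% and 24.4%. Without sgMETTL1.3 replicate 1, 5 fell and 5 rose as TPM, against 35.4% and 34.7%. RBBP8 (-0.83), the histone deacetylase gene HDAC2 (-0.73) and the histone methyltransferase gene SUV39H1 (-0.67) fell on both scales.

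The median of the listed G1/S targets lay below that of the factors. Of 28 G1/S target genes, 25 fell and none rose on the spike-in scale, against 49.3% and 6.4% of tested genes. Their median log2 fold change was -0.82. As TPM 22 fell and 1 rose, against 26.6% and 24.4%, with a median of -0.47. The corresponding medians of the 9 tested members were -0.61 and -0.28. GMNN, which encodes the licensing inhibitor geminin, fell from 163 to 41.1 in the mean (log2 fold change -1.96, adjusted p = 3.3e-08). MCM6, of the helicase loaded at origins, had a log2 fold change of -1.55, and TYMS, thymidylate synthase, of -1.43. Of 15 G2/M genes bound by DREAM, 14 fell on the spike-in scale (median -0.57), against 49.3% of tested genes. As TPM 7 fell (median -0.22), against 26.6%. CDK1, the mitotic kinase, had a log2 fold change of -1.52, AURKA, a spindle pole kinase, -1.04, and BUB1, a spindle checkpoint kinase, -0.98. Without sgMETTL1.3 replicate 1, 26 of the G1/S genes and 14 of the G2/M genes fell on the spike-in scale, against 61.4% of tested genes. As TPM without that library, 24 of the G1/S genes fell and 2 rose, and 11 of the G2/M genes fell and 2 rose. Across all tested genes 35.4% fell and 34.7% rose in that setting.

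**Figure D4:**
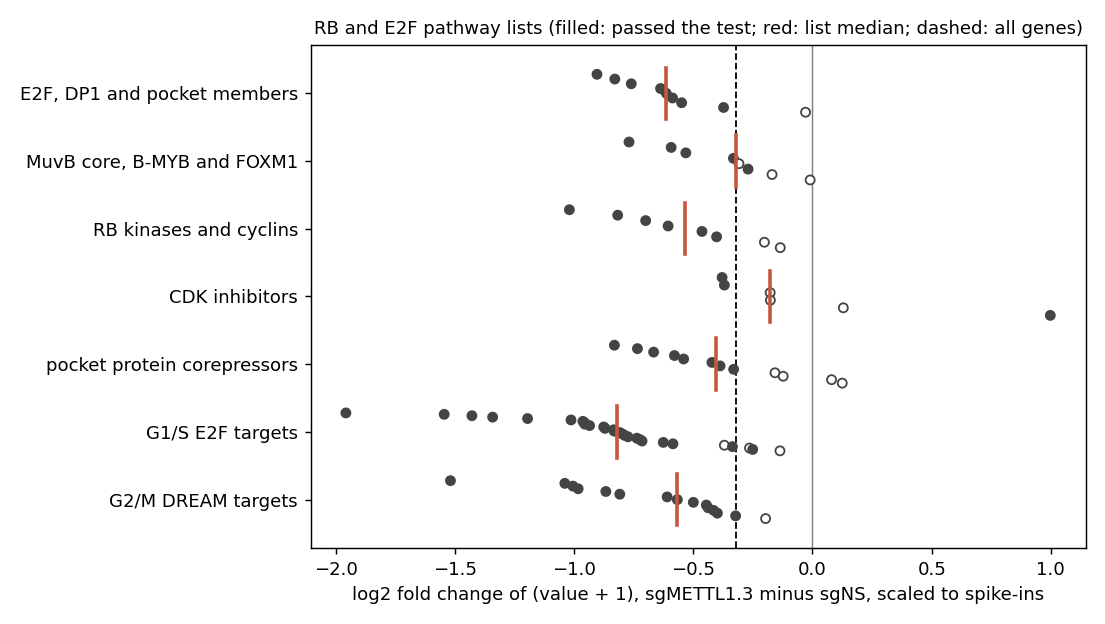
Log2 fold change of (value + 1) on the spike-in scale, sgMETTL1.3 minus sgNS, for each tested gene of the member set and of 6 lists of the RB and E2F pathway; filled points passed the test, the red bar is the list's median and the dashed line is the median of all tested genes, -0.32. The G1/S targets have the lowest median, -0.82, and CDKN1A, at 1.00, is the single point far to the right.

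The E2F letters described above were carried by 11 of the 23 G1/S genes with a window and by 2 of the 13 G2/M genes. Counted per gene in the same way, 5.64% of the 9198 tested genes with a window carried them. Across all tested genes with a window, 58.6% of the 519 with the letters and 51.5% of the 8679 without them fell on the spike-in scale. As TPM these shares were 31.9% and 27.6%. These shares are descriptions of the windows, and a match is not evidence of a bound site.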

How the data were processed

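Per the labels' protocols, an mRNA kit was used on 300 ng of total RNA, and ERCC spike-ins were added in an amount the labels leave out. Reads were processed with cutadapt, STAR and RSEM (builds GRCh38 and hg38), per the submitters' processing notes. Their versions, the annotation and whether counting used strand were not given in the sources used here. In the deposited file the signal values are TPM times 1 factor per library that equalises the summed 92 ERCC rows, which was read from the values. The filter asked for 1 or more in 3 or more of the 6 libraries and kept 12449 genes. On log2(value + 1), limma 3.58.1 (R 4.3.3, eBayes with trend, robust) was fitted with no block and with Benjamini-Hochberg adjustment over all tested genes at 0.05, two-sided. The low-value steps are rounding and not reads, so no count test was possible and the depth is unknown. The fit was tested on simulated data. TPM were recovered by dividing by the factor. The members, the lists and the choice of alternatives were made with earlier results of these data known. Named genes were the 10 members, METTL1, E2F5, E2F6, TFDP2 and up to 3 per direction of each list with the smallest p. Loci and GC content came from GENCODE 29 and windows from RefSeq (GRCh38.p14).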

Additional observations from a re-analysis of the deposited data

How the results depend on the processing

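Over 18 alternatives, E2F1, E2F8, RBL1, RBL2, TFDP1 and E2F5 fell in each, whereas E2F3, E2F4, RB1 and TFDP2 fell in 11, 16, 14 and 16. Tested genes that rose numbered 797 on the spike-in scale, 3021 as TPM, 3179 with median-of-ratios scaling, 3448 with a GC correction of TPM and 4231 as TPM when sgMETTL1.3 replicate 1 was left out; the GC correction of TPM was chosen after seeing the data like the GC correction alone. With a filter at a mean of at least 5 they numbered 510. Those that fell numbered 6142, 3295 as TPM, 3340 with median-of-ratios scaling, 7213 with the GC correction and 4154 with that of TPM. Under the 4 settings on the TPM or median-of-ratios scale without a block, 1 member rose, E2F2, at 0.31 as TPM, 0.32 with median-of-ratios scaling, 0.27 without sgMETTL1.3 replicate 1 and 0.17 with the GC correction; with median-of-ratios scaling 5 members fell. With each library left out in turn on the spike-in scale, E2F2 ranged from -0.137 to 0.0871, the latter without sgMETTL1.3 replicate 2, and did not pass. E2F3 was at 0.0431 as TPM without sgMETTL1.3 replicate 1 and at 0.0114 with the GC correction of TPM, without passing. E2F6 was at 0.18 as TPM, 0.19 with median-of-ratios scaling, 0.26 without that library and 0.24 with the GC correction, and passed in the last 3. The activator minus repressor difference was 0.24 as TPM and 0.37 without a pseudocount and without E2F7, both chosen after seeing the data; the added 1 bears on E2F7, which is at or near 0. Same-numbered libraries did not deviate together (r = -0.0137, 0.00455 and -0.0385). No shared deviation was thus seen, but this cannot show whether the replicates were handled as pairs. With the replicate block on TPM, 2824 genes rose, 3077 fell, 5 members fell and 1 rose, E2F2 at 0.31; E2F4 did not pass there (adjusted p = 0.061), nor did E2F6, at 0.18 (adjusted p = 0.123). The depth is unknown, so the precision of low values such as E2F7 cannot be given.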
